A study of Homo sapiens with 24 samples.

Results

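Imprinted genes are read mainly from either the maternal or the paternal chromosome, and 10 of them, SNRPN, SNURF, NDN, MAGEL2, H19, IGF2, PEG10, PEG3, MEG3 and MEST, were followed here by symbol among 60448 symbols in 4 deposited tables. They were selected on earlier results of these data, in which SNRPN was lower in metastasis-derived prostate lines, so the members' differences between metastasis-derived and parental libraries of a line are given as a description. Whether those differences were unlike between the cell lines was tested for the members other than SNRPN. RNA sequencing covered 24 libraries of 2 human prostate epithelial lines, BPH-1, immortalized by SV40, and RWPE-1, immortalized by HPV18. The paper describes both lines as engineered with firefly and Gaussia luciferase reporters, and C-Raf was expressed from a lentivirus with a ubiquitin promoter. There were 3 vector control, 3 C-Raf parental and 6 metastasis-derived libraries of BPH-1. RWPE-1 had 1 vector control, 4 C-Raf parental and 7 of metastasis origin. The metastasis-derived lines were grown for about a week in culture from macroscopic tumors that formed in immunodeficient NSG mice after C-Raf cells were injected into the heart. The labels name bone, lymph node and spine as sites. The site labels of the BPH-1 lines titled bone R075 and thymus R075 contradict each other, and no site was used for them. In BPH-1 the titles name sGluc, taken here as the Gaussia reporter, for vector control as well as for parental cells. Titles of the metastasis-derived BPH-1 lines and of the RWPE-1 libraries do not name it. Whether the reporters differed between these groups cannot be told from the titles and was not tested. Nothing in the labels says that libraries of a vector or parental group came from separate cultures, or that metastasis-derived lines came from separate mice. The p-values therefore measure only the spread between these libraries. Lines such as LN1A and LN1B, or those titled R075, share part of their name, and the tests count each line separately.

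At an imprinted locus, DNA methylation laid down in the egg or sperm silences a promoter or insulator on 1 parental copy, and the copy that stays active differs between genes. SNRPN, SNURF, NDN and MAGEL2 lie in the Prader-Willi region of chromosome 15 and are read from the paternal copy. H19, a maternally read long noncoding RNA, and IGF2, a paternally read fetal growth factor, share enhancers and an imprinting centre on chromosome 11. PEG10 and MEST on chromosome 7 and PEG3 on chromosome 19 are paternally read, and MEG3 on chromosome 14 is a maternally read long noncoding RNA. Methylation and parental origin of the RNA were not measured here.

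Levels are CPM, the counts of a gene per 1000000 protein-coding and long noncoding counts, scaled between libraries by TMM, and are compared within a gene, not between genes. The 21 libraries with over 1000000 protein-coding counts held 21787586 to 42264817 protein-coding and long noncoding counts each. The other 3, all metastasis-derived BPH-1 libraries (R071, R074 and the one titled bone R075), held 112432 to 469469, since RN7SL1, the RNA of the signal recognition particle, took 93.3% to 97.55% of their counts. In the remaining metastasis-derived BPH-1 libraries (R069, R072 and the line titled thymus R075, called the 3 deep libraries) RN7SL1 took 4.60% to 30.3%, against at most 0.00932% in every library outside that group. All BPH-1 metastasis-derived libraries also sit in 1 table and all other BPH-1 libraries in another, so stage and table cannot be told apart in BPH-1. Each of the 8 prostate epithelial markers (KRT5, KRT8, KRT14, KRT18, KRT19, TP63, EPCAM and CDH1) had a mean of at least 1 CPM in each group with the low libraries set aside, whereas the luminal genes KLK3 and KLK2 had means under 0.1 CPM in those groups.

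Of the 10 members 6 were measured and 4 had almost no reads, with 0.18 expected counts of SNURF, 7 of NDN, 2 of MAGEL2 and 3 of PEG3 summed over the 24 libraries, with no more than 2 in any library. SNURF (chr15:24954986-24977850) lies inside SNRPN (chr15:24823637-24978723, plus strand, GENCODE 29, GRCh38), and 814 of its 1175 exon bases, 69.3%, are also exon bases of SNRPN. A bicistronic transcript carries both names, and SNRPN also has starts that SNURF does not share. Counts per gene cannot tell which of these transcripts gave the SNRPN reads, and the near absence of SNURF counts is no measure of SNURF on its own.

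In the RefSeq tables (GRCh38.p14) windows upstream of a start were found for 7 members. The windows of the shared SNRPN and SNURF start and of H19 are shown because SNRPN is the gene the selection started from and H19 had the largest change after C-Raf. Capitals mark CG dinucleotides, the methylated unit at imprinting centres. The 250 bases before the shared SNRPN and SNURF start (chr15:24954737-24954986, plus strand) held 12 CG, and 48.4% of 34943 such windows held at least as many. The 250 bases before the H19 start (chr11:2001267-2001516, minus strand) held 4, and 70.6% of windows held at least as many.
SNRPN and SNURF, 5′ to 3′: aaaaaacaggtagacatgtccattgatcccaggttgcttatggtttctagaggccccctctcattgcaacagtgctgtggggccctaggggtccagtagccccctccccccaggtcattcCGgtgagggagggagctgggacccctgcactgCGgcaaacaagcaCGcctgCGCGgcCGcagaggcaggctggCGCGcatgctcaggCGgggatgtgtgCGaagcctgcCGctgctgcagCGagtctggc
H19, 5′ to 3′: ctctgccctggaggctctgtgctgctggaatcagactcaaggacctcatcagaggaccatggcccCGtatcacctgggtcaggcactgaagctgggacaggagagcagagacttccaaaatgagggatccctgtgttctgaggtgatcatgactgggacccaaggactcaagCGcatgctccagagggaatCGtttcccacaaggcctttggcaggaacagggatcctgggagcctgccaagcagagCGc

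H19 and MEST also host miRNAs, short RNAs that pair with messenger RNAs through a seed, shown here because the host transcripts changed most after C-Raf. Capitals mark the seed, bases 2 to 8. The miRNAs themselves were not measured by these libraries.
hsa-miR-675-5p in H19 (chr11:1996800-1996822, minus strand): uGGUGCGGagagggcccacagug
hsa-miR-335-5p in MEST (chr7:130496126-130496148, plus strand): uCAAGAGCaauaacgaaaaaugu

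The comparison of C-Raf parental with vector control BPH-1 cells concerns cells before any passage through mice. Other differences between these cells cannot be told apart from C-Raf. H19 fell 5.76-fold and MEST, a hydrolase-like protein of the endoplasmic reticulum, fell 2.10-fold, while IGF2 rose 1.77-fold. PEG10, a retrotransposon-derived gene, MEG3 and SNRPN, which encodes the SmN splicing protein, fell by smaller amounts. H19 measured 5.00, 4.94 and 5.01 CPM in the 3 vector control libraries and 0.836, 1.15 and 0.612 CPM in the C-Raf parental libraries. These groups lie well apart, and the log2 fold change was -2.53 ± 0.16 (SE, 3 against 3; edgeR quasi-likelihood test, adjusted p = 3.1e-13). Its neighbour IGF2 moved the other way.

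IGF2 measured 10.5, 10.4 and 10.1 CPM in vector control and 17.3, 19.01 and 19.06 CPM in C-Raf parental libraries. The log2 fold change was 0.82 ± 0.06 (SE; edgeR, adjusted p = 1.2e-11). MEST went from 264, 261 and 261 CPM to 128, 124 and 126 CPM, a log2 fold change of -1.07 ± 0.03 (SE; edgeR, adjusted p = 5.1e-22). In both genes the lowest library of the higher group stood far above the highest of the other. PEG10 had means of 100.3 ± 3.9 CPM and 68.9 ± 1.1 CPM (SD, n = 3 each), a log2 fold change of -0.56 ± 0.03 (SE; edgeR, adjusted p = 9.1e-14). MEG3 had 39.1 ± 2.1 CPM and 28.1 ± 0.5 CPM, a log2 fold change of -0.49 ± 0.05 (SE; edgeR, adjusted p = 6.6e-10).

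SNRPN changed least. It measured 28.3, 26.4 and 27.5 CPM in vector control and 21.2, 23.4 and 22.5 CPM in C-Raf parental libraries, and the groups did not overlap. The log2 fold change was -0.31 ± 0.05 (SE; edgeR, adjusted p = 6.1e-06). All 6 members tested passed the threshold, 5 lower and 1 higher, against 58.3% of all 13830 genes tested, 28.3% lower and 30.1% higher. The median over the 6 was -0.52 against -0.00048 over all genes. Replicates varied little here, with a common biological coefficient of variation of 2.47%, so small differences passed.

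**Figure D1:**
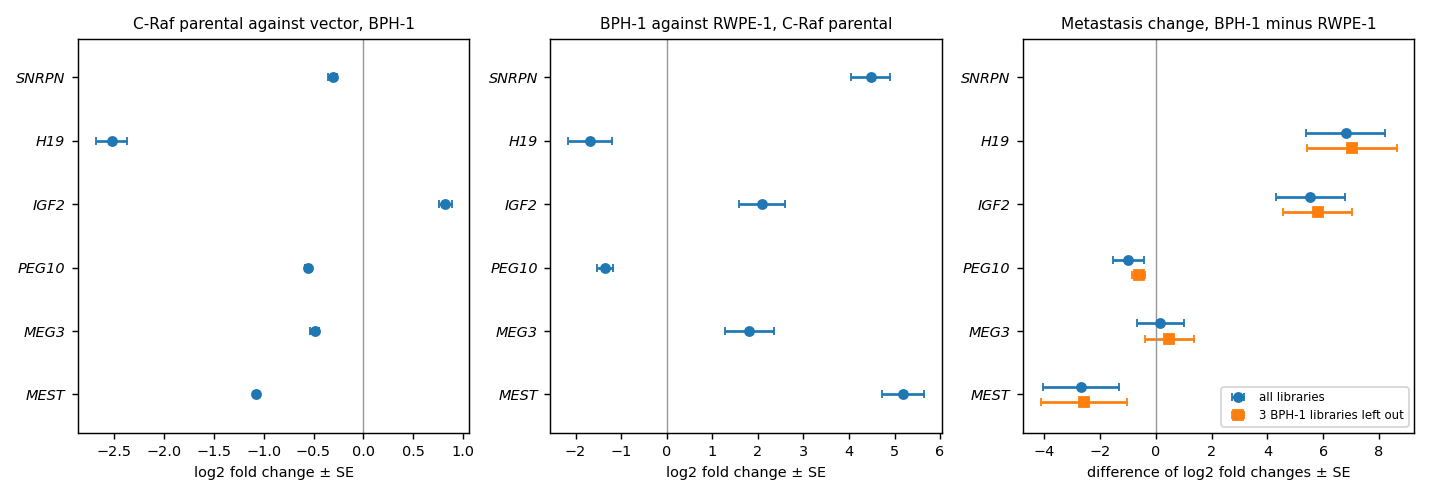
Log2 fold changes (x axis, bars are SE) of the 6 measured members (rows) in the 3 comparisons that were tested. H19 lies at -2.53 in the C-Raf comparison and at 6.80 in the difference between cell lines, where orange squares leave out the 3 libraries with few protein-coding counts and the SNRPN row is empty because SNRPN was chosen for its metastasis change.

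RWPE-1 has 1 vector control library, so its C-Raf comparison has no replicate check. Only the parental library CRAF, given first where all 4 are listed, shares a deposited table with it. H19 measured 13.6 CPM in that library and 5.29, 2.39, 1.85 and 1.63 CPM in the 4 C-Raf parental libraries, all below it. MEST was also higher in the vector control, at 10.5 CPM against 2.39, 7.37, 2.06 and 1.95 CPM. MEG3 had 0 counts in the vector control, where 3 counts would be 0.0852 CPM, and 2.56, 3.62, 11.3 and 14.1 CPM in the parental libraries, so the lowest of these was at least 30.0-fold higher. IGF2 was 1.62 CPM against 1.38 to 7.01 CPM, SNRPN 0.313 CPM against 0.334 to 1.66 CPM, and PEG10 232 CPM against 137 to 212 CPM.

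The RWPE-1 parental libraries were not alike. The libraries named CRAF-3 and CRAF-4 held the 2 highest values of SNRPN, IGF2 and MEG3 and the 2 lowest of PEG10 and H19. The library CRAF, from the other RWPE-1 table, had the lowest SNRPN and MEG3 and the highest H19. These spreads enter every comparison with RWPE-1.

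**Figure D2:**
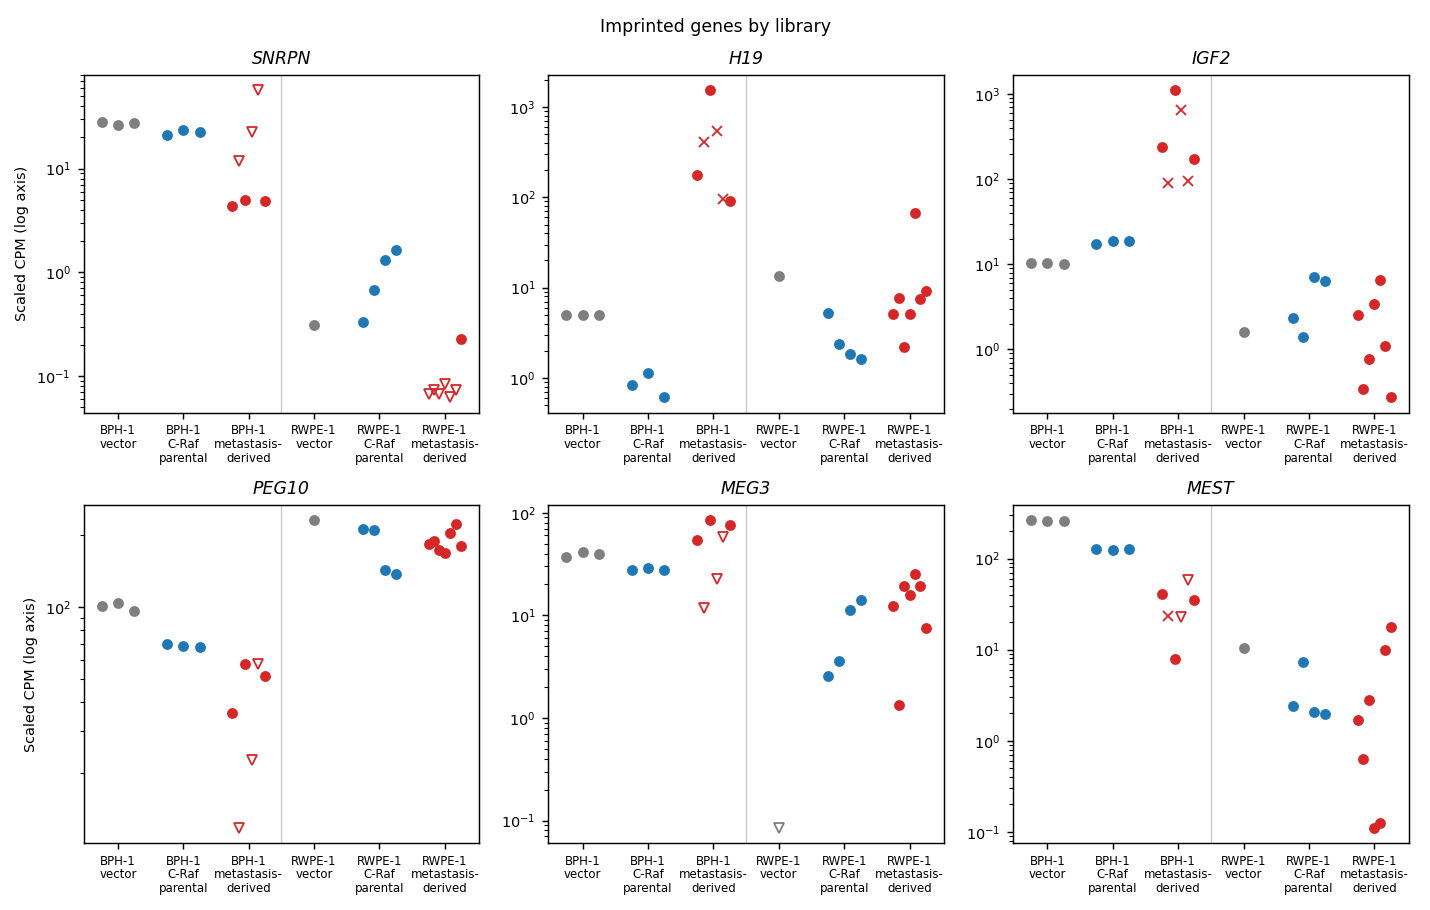
Scaled CPM (y axis, log) of 6 members in each library, by cell line and stage (x axis). Circles are libraries, crosses are the 3 libraries with few protein-coding counts, and open triangles mark a count under 3, drawn at the level of 3 counts. SNRPN stands at 4.35 to 4.97 CPM in the deep metastasis-derived BPH-1 libraries against 21.2 to 23.4 CPM in their parental libraries.

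Before metastasis, the cell lines differed in every measured member. Between C-Raf parental libraries, MEST was 36.3-fold and SNRPN 22.3-fold higher in BPH-1, IGF2 and MEG3 were 4.27-fold and 3.52-fold higher, and PEG10 and H19 were 2.55-fold and 3.21-fold lower. SNRPN measured 0.334, 0.679, 1.30 and 1.66 CPM in RWPE-1 against a mean of 22.4 ± 1.1 CPM (SD, n = 3) in BPH-1, a log2 fold change of 4.48 ± 0.42 (SE; edgeR, adjusted p = 4.1e-05). MEST had means of 126 ± 1.5 CPM (SD, n = 3) in BPH-1 and 3.44 ± 2.6 CPM (SD, n = 4) in RWPE-1, a log2 fold change of 5.18 ± 0.47 (SE; edgeR, adjusted p = 3.3e-05). Neither gene overlapped between the lines.

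PEG10 differed by a log2 fold change of -1.35 ± 0.17 (SE; edgeR, adjusted p = 0.00021), with 175 ± 41 CPM (SD, n = 4) in RWPE-1. IGF2 differed by 2.10 ± 0.51 (SE; edgeR, adjusted p = 0.0065) and MEG3 by 1.82 ± 0.55 (SE; edgeR, adjusted p = 0.017), both as log2 fold changes. H19 differed by a log2 fold change of -1.68 ± 0.48 (SE; edgeR, adjusted p = 0.013). This call depended on 1 library: without the BPH-1 C-Raf parental replicate 3, the value was -1.48 with adjusted p = 0.055 (edgeR). Of the 6 members tested, 4 were higher and 2 lower in BPH-1, against a background of 73.2% of 14181 genes, 35.5% higher and 37.7% lower. Cell line, deposited table and culture medium cannot be told apart in this comparison. The paper reports fetal bovine serum in the medium of BPH-1, and for RWPE-1 a serum-free keratinocyte medium with EGF and bovine pituitary extract. With the single RWPE-1 parental library of the first table or only the 3 of the second, the log2 fold change was 6.051 or 4.203 for SNRPN, 3.45 or 1.53 for MEG3 and -2.60 or -1.17 for H19, and all 6 members kept direction and call (edgeR, with the lone library assumed to vary like the BPH-1 ones).

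SNRPN was lower in the metastasis-derived lines of both cell lines, which is the pattern it was selected on. In BPH-1 it measured 21.2, 23.4 and 22.5 CPM in the C-Raf parental libraries and 4.35, 4.97 and 4.87 CPM in the 3 deep metastasis-derived libraries, with no overlap. Over all 6 the lowest was 0, the median 4.61 and the highest 15.2 CPM, but in the 3 low libraries 3 counts would be 11.8 to 57.6 CPM, so their 0 to 1.82 counts do not resolve the parental level. The log2 fold change was -2.32 ± 0.57 (SE) with all 6 and -2.18 ± 0.18 without the low libraries. On the scaled level the deep libraries lie close together, with an SD of 0.334 CPM. Relative to all counts they spread further, with R072 lowest, and all stayed below the parental libraries. SNRPN had 137.6 of 40191637 counts in R069, 64.6 of 52851374 in R072 and 141.9 of 33070705 in the line titled thymus R075. In RNA from whole cultures, fewer cells that express a gene and less of its RNA per cell cannot be told apart.

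In RWPE-1 SNRPN had 12.2, 27.0, 50.3 and 63.1 expected counts in the 4 C-Raf parental libraries, and in the 7 metastasis-derived libraries it was 0 in 5, 2 in Bone5 and 10 in Bone6. Every metastasis-derived library was below every parental one. Lines from lymph node (LN1A and LN1B) and spine (Spine and Spine2) and the line Bone4 were those at 0, where 3 counts would be 0.0622 to 0.0833 CPM. The log2 fold change was -4.54 ± 0.88 (SE), and -6.51 without Bone6. Of the libraries in the first RWPE-1 table, the parental one stood at 0.334 CPM and the 3 others of metastasis origin at 0, and within the second the means were 1.21 ± 0.50 CPM (SD, n = 3) and 0.0691 ± 0.11 CPM (SD, n = 4). The parental level was itself low, which limits how far a further decrease can be resolved. At an adjusted p under 0.05 this contrast called 0.109% of genes in RWPE-1, 17.2% in BPH-1 and 3.39% with both lines pooled, given as background only.

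On the scaled level, transcripts beside SNRPN did not all follow it. SNHG14, the long host RNA that continues downstream of SNRPN and carries its snoRNA clusters, measured 20.4, 19.9 and 20.5 CPM in BPH-1 C-Raf parental libraries. In the deep metastasis-derived libraries it measured 25.5, 25.7 and 18.2 CPM, so on the scaled level these groups overlapped while SNRPN did not. Relative to all counts, the deep libraries all lay below every parental one for SNHG14, as for SNRPN. In RWPE-1 SNHG14 was 0.2503, 0.830, 1.75 and 1.66 CPM in parental libraries and 0.0278, 0.0973 and 0.245 CPM as lowest, median and highest in metastasis-derived ones. The change of SNHG14 differed between the cell lines by 3.13 ± 0.72 on the log2 scale (SE; edgeR interaction, adjusted p = 0.0035). The BPH-1 side of this difference, and of those below for its neighbours, carries the table and RN7SL1 differences above. PWAR5, a further noncoding RNA of the region, had a mean of 0.862 ± 0.050 CPM in BPH-1 parental and 7.70 ± 2.4 CPM in deep metastasis-derived libraries (SD, n = 3 each). Its change also differed between the cell lines, by 5.91 ± 1.1 (SE; edgeR interaction, adjusted p = 0.00066), on at most 0.132 CPM in any RWPE-1 parental library. PWAR6, another noncoding RNA there, had a difference of 2.84 ± 1.2 (SE; edgeR interaction, adjusted p = 0.071), with 0.651 to 0.991 CPM in BPH-1 parental and 0.308 to 1.45 CPM in the deep libraries. UBE3A, the ubiquitin ligase gene read in the opposite direction, had means of 129 CPM in BPH-1 parental and 190.5 CPM in deep metastasis-derived libraries, against 202 CPM in both RWPE-1 groups. The UBE3A change differed between the cell lines by 1.17 ± 0.42 on the log2 scale (SE, edgeR interaction, adjusted p = 0.0397). The differences given for SNHG14, PWAR5, PWAR6 and UBE3A were fitted with the low BPH-1 libraries included, whereas the BPH-1 metastasis-derived levels beside them are of the deep libraries. For UBE3A the fitted difference is larger than these deep-library levels alone would give.

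**Figure D3:**
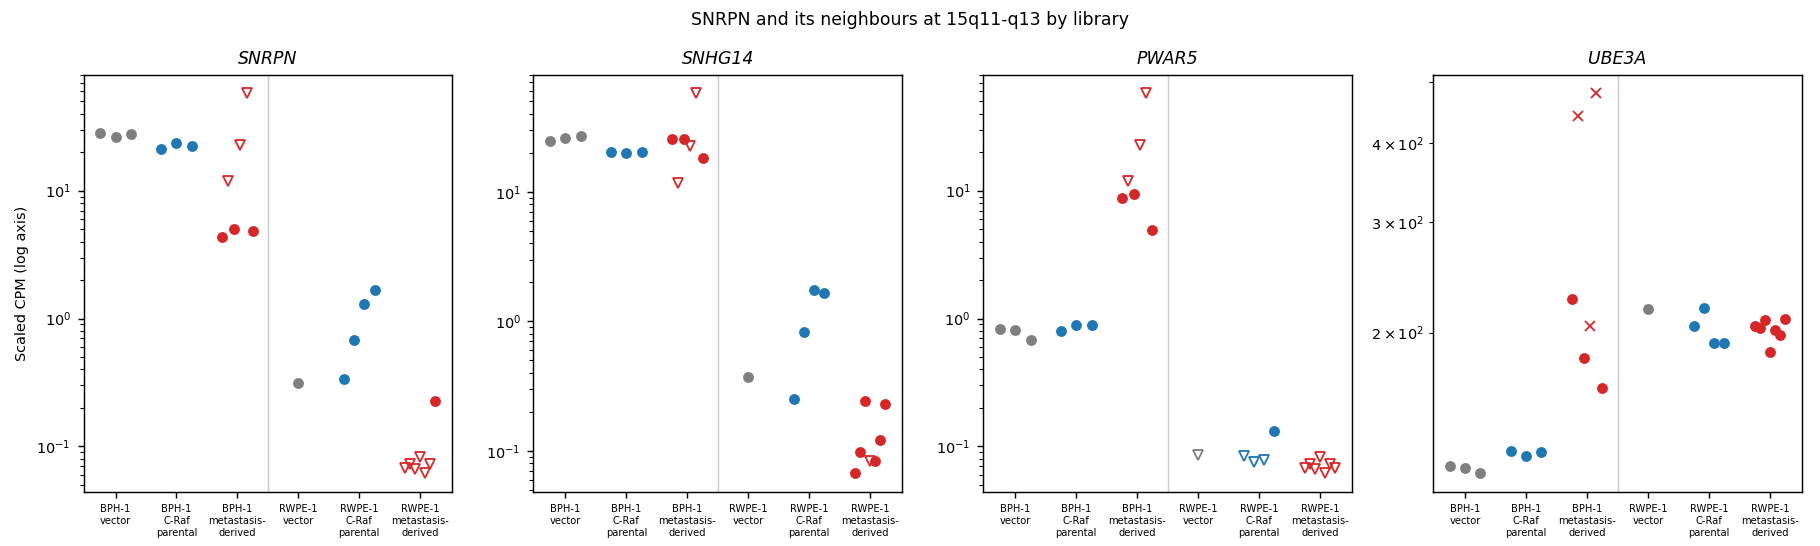
Scaled CPM (y axis, log) of SNRPN, SNHG14, PWAR5 and UBE3A in each library by cell line and stage (x axis), with symbols as in the plot of members by library. In BPH-1 the deep metastasis-derived libraries lie at 4.35 to 4.97 CPM for SNRPN and at 18.2 to 25.7 CPM for SNHG14.

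H19 and IGF2 were both far higher in the 3 deep metastasis-derived BPH-1 libraries, on the scaled level and relative to all counts. H19 measured 0.836, 1.15 and 0.612 CPM in the parental libraries and 175, 1544 and 90.0 CPM in the 3 deep metastasis-derived libraries, with 90.0, 292 and 1544 CPM as lowest, median and highest of all 6. The log2 fold change was 8.96 ± 1.3 (SE) with all 6 and 9.52 ± 1.5 without the low libraries. IGF2 measured 17.3, 19.01 and 19.06 CPM in parental and 239, 1124 and 173 CPM in the deep libraries, with 90.6, 206 and 1124 CPM over all 6. Its log2 fold change was 4.32 ± 1.0 (SE), or 4.87 ± 0.83 without the low libraries. On the scaled level every metastasis-derived library exceeded every parental one for both genes, and R072 was the highest of the group. Relative to all counts this held for the 3 deep libraries and not for all of the low ones.

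R072 holds 30.3% RN7SL1 counts and has a TMM factor of 0.5998, so its scaled levels exceed unscaled ones. Relative to all counts, H19 was 382 CPM in R072, 138 in R069 and 79.4 in the line titled thymus R075, against 0.692 to 1.28 CPM in the parental libraries. On that scale the line titled bone R075, with 5 counts of H19, stood at 0.122 CPM, below the parental libraries, while R071 and R074 stood at 11.5 and 2.58 CPM. IGF2 on that scale was 189, 278 and 153 CPM in the deep libraries and 19.1 to 21.6 CPM in the parental ones, and all 3 low libraries lay below these, at 2.60 CPM in R071, 3.13 CPM in R074 and 0.122 CPM in the line titled bone R075. KCNQ1OT1, a nuclear antisense RNA of the neighbouring imprinting centre on chromosome 11, moved with H19 and IGF2, from 5.80 ± 0.76 CPM in parental to 259 ± 70 CPM in deep metastasis-derived libraries (SD, n = 3 each). MRPL23, a mitochondrial ribosomal protein gene next to H19, went from 46.8 ± 0.85 to 10.0 ± 1.7 CPM. The share of RN7SL1 also moved with these genes, and its part in the result was not tested.

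Markers of other cell types were read in the same libraries. The tumors grew in mice and the counts are of human genes, so these levels are no direct measure of host cells. The summed level of the 8 stromal fibroblast genes was 11.2 to 11.5 CPM in BPH-1 parental and 47.1 to 68.2 CPM in the deep metastasis-derived libraries, of which COL1A1 made up a mean of 53.6 CPM, while DCN, LUM and POSTN had means under 0.1 CPM and POSTN was at 0. The 4 endothelial genes summed to 1.46 to 1.53 CPM and 2.30 to 37.9 CPM, with VWF leading in the deep libraries, and the 6 haematopoietic genes to 26.2 to 29.2 CPM and 6.28 to 22.1 CPM, mostly CD68. The part of these genes in the H19 and IGF2 values was not tested. The prostate epithelial sum was 6107 to 6279 CPM in parental and 9070 to 10995 CPM in the deep libraries.

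In RWPE-1 H19 measured 2.20, 7.58 and 66.8 CPM as lowest, median and highest of the metastasis-derived lines, against 5.29, 2.39, 1.85 and 1.63 CPM in the parental libraries. The groups overlapped, and Bone4 alone stood at 66.8 CPM with the next line at 9.10 CPM. The log2 fold change was 2.41 ± 0.92 (SE), and 1.14 without Bone4. Within the second table the parental mean was 1.957 ± 0.39 CPM (SD, n = 3) against 5.08 to 66.8 CPM in the 4 metastasis-derived lines, whereas in the first table the parental library at 5.29 CPM lay inside the range of 2.20 to 7.66 CPM. The stromal sum in Bone4 was 13.2 CPM, within the range of 8.62 to 20.4 CPM of the parental libraries, and Bone5 was the line outside it, at 58.1 CPM with 7.58 CPM of H19. DCN, a fibroblast proteoglycan gene of that list, had means of 0.210 CPM in RWPE-1 parental and 2.31 CPM in metastasis-derived libraries, and the part of these genes in the result was not tested. IGF2 in RWPE-1 ran from 0.274 to 6.51 CPM with a median of 1.09 in metastasis-derived and from 1.38 to 7.01 CPM in parental libraries, a log2 fold change of -1.003 ± 0.77 (SE).

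The change in metastasis-derived lines differed between the cell lines for both genes. The difference of log2 fold changes, BPH-1 minus RWPE-1, was 6.80 ± 1.4 for H19 (SE; edgeR interaction, adjusted p = 0.0017) and 5.54 ± 1.2 for IGF2 (SE; edgeR interaction, adjusted p = 0.0029). Without the 3 low libraries they were 7.03 (adjusted p = 0.0022) and 5.80 (adjusted p = 0.0013), and without R072 they were 5.86 (adjusted p = 0.0025) and 4.80 (adjusted p = 0.0033), all by edgeR. Of the 5 members tested in this comparison 2 passed, both higher in BPH-1, against a background of 29.8% of 15242 genes, 17.7% higher and 12.1% lower. The BPH-1 side of this difference carries the table and RN7SL1 differences above.

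**Figure D4:**
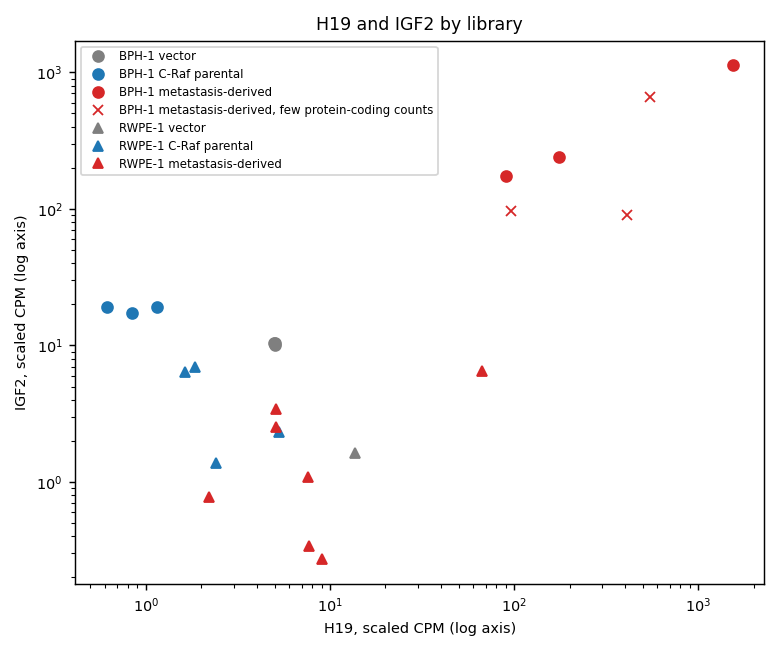
IGF2 (y axis, log) against H19 (x axis, log) in scaled CPM, 1 symbol per library, with circles and crosses for BPH-1 and triangles for RWPE-1. The 6 metastasis-derived BPH-1 libraries lie at 90.0 to 1544 CPM of H19 and 90.6 to 1124 CPM of IGF2, and Bone4 is the RWPE-1 library at 66.8 CPM of H19.

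On the scaled level MEST and PEG10 were lower and MEG3 higher in the deep metastasis-derived BPH-1 libraries, whereas MEST and MEG3 in RWPE-1 lay on both sides of their parental ranges. MEST measured 128, 124 and 126 CPM in BPH-1 parental and 40.9, 7.96 and 35.0 CPM in the deep libraries, with a log2 fold change of -2.48 ± 0.65 (SE) over all 6 and -2.11 ± 0.55 without the low ones. Among RWPE-1 metastasis-derived lines MEST ran from 0.111 CPM in Spine2 and 0.124 in Bone4 to 9.81 in Bone5 and 17.9 in Bone6, on both sides of the parental range of 1.95 to 7.37 CPM. CPA4, a carboxypeptidase gene of the same cluster, had means of 74.5 CPM in BPH-1 parental and 21.4 CPM in deep metastasis-derived libraries.

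PEG10 measured 70.1, 68.8 and 67.9 CPM in BPH-1 parental and 36.0, 57.3 and 51.4 CPM in the deep libraries, a log2 fold change of -0.45 ± 0.21 (SE) without the low libraries and -1.17 ± 0.67 with them. In RWPE-1 PEG10 had 169, 183 and 224 CPM as lowest, median and highest in metastasis-derived lines, against 137 to 212 CPM in parental libraries. The groups overlapped, with a log2 fold change of 0.12 ± 0.13 (SE). MEG3 measured 27.6, 28.6 and 28.0 CPM in BPH-1 parental and 53.7, 84.6 and 75.9 CPM in the deep libraries, a log2 fold change of 1.41 ± 0.21 (SE) without the low libraries and 0.69 ± 0.65 with them. Relative to all counts MEG3 in R072 was 20.9 CPM, below the parental 30.6 to 31.99 CPM, while the other deep libraries stood above at 42.4 and 66.98 CPM. In RWPE-1 MEG3 ran from 1.34 CPM in LN1B to 25.4 CPM in Bone4, overlapping the parental range of 2.56 to 14.1 CPM.

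None of these changes was shown to differ between the cell lines with all libraries. The differences of log2 fold changes were -2.68 ± 1.4 for MEST (adjusted p = 0.14), -0.99 ± 0.56 for PEG10 (adjusted p = 0.18) and 0.17 ± 0.84 for MEG3 (adjusted p = 0.92), all with SE by edgeR. Without the 3 low libraries the PEG10 difference was -0.62 ± 0.23 (SE; edgeR, adjusted p = 0.041). The MEG3 difference had no stable sign, running from -0.29 to 0.49 across the alternatives.

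**Figure D5:**
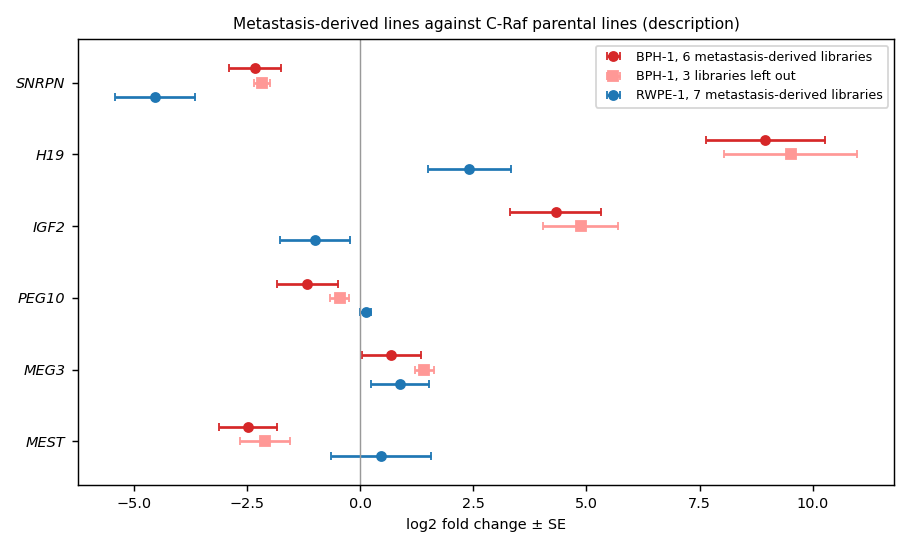
Log2 fold changes (x axis, bars are SE) of metastasis-derived against C-Raf parental libraries for 6 members (rows), in BPH-1 with all 6 libraries, in BPH-1 without the 3 low libraries, and in RWPE-1. SNRPN lies below 0 in both cell lines, and H19 lies at 8.96 in BPH-1 and 2.41 in RWPE-1.

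Other imprinted genes give the setting. Of 90 genes in a list of imprinted clusters 86 were found, and 80 of the 90, including the 4 not found, are no members. In the C-Raf comparison 54 of these 80 were tested, of which 15 rose, 14 fell and 25 did not pass, with a median log2 fold change of -0.02, against a background of 30.1% higher and 28.3% lower. Among genes with a mean of at least 1 CPM the largest rises were TFPI2, a protease inhibitor gene near PEG10, at 2.84 ± 0.04 and the growth factor receptor adaptor GRB10 at 1.65 ± 0.13, and the largest falls were CPA4 at -1.42 ± 0.03 and the zinc finger gene PLAGL1 at -1.34 ± 0.12 (log2 fold changes with SE; edgeR, adjusted p from 5.5e-28 to 2.8e-10). Between the cell lines 55 were tested, 23 higher and 23 lower in BPH-1, against 35.5% and 37.7% of all genes. CPA4 was higher in BPH-1 by 6.11 ± 0.35 and SNHG14 by 4.16 ± 0.48, and GRB10 lower by a log2 fold change of -3.35 ± 0.16 (SE; edgeR, adjusted p from 1.6e-06 to 0.00013). NLRP2, an oocyte and inflammasome-related gene, had a mean of 60.5 CPM in RWPE-1 and 0.0206 CPM in BPH-1 C-Raf parental libraries. In the difference of metastasis changes 60 were tested with all libraries, 8 higher, 11 lower and 41 not passing, against 17.7% higher and 12.1% lower over all genes. Without the 3 low libraries 11 were higher and 17 lower. Those 2 counts cannot be read against the same shares, since the number of all genes called also moved with the setting. It was 4539 with all libraries and ran from 3189 to 6733 across the alternatives.

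Lists around the members were read the same way, against the same shares of all genes (30.1% higher and 28.3% lower after C-Raf, 17.7% and 12.1% in the difference of metastasis changes). Of 20 imprint and DNA methylation regulators 13 were tested in the C-Raf comparison, of which 1 rose, TRIM28, and 8 fell, among them TET1, DNMT3A and ZNF445. ZFP57, a zinc finger protein that keeps imprints methylated, had a mean of 22.1 CPM in RWPE-1 C-Raf parental libraries and 0.0670 CPM in BPH-1 ones. In the difference of metastasis changes TET3 and TET2, enzymes that oxidize methylcytosine, were higher in BPH-1 by 2.81 ± 0.47 and 2.33 ± 0.37 on the log2 scale and TRIM28 lower, at -2.06 ± 0.55 (SE; edgeR, adjusted p from 2.0e-04 to 0.0089), and 11 of 14 did not pass. Of 16 genes of the IGF axis 13 were tested in the C-Raf comparison, 5 higher and 6 lower, with IGFBP3, which binds IGF ligands, at -2.26 ± 0.03 and the IGF1 receptor gene IGF1R at -0.33 ± 0.04 (log2 fold changes with SE; edgeR, adjusted p 3.2e-28 and 1.1e-08). IGF2BP1, which binds IGF2 messenger RNA, had a mean of 9.13 CPM in RWPE-1 and 0.0113 CPM in BPH-1 C-Raf parental libraries.

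The Sm core genes encode the ring of proteins that SmN joins. Of 7 tested after C-Raf, 6 rose and 1, SNRPD3, did not pass, with a median log2 fold change of 0.21, against 30.1% of all genes higher. SNRPB, which encodes the SmB proteins that SmN resembles, had means of 237 CPM in vector control and 259 CPM in C-Raf parental BPH-1, 139 CPM in deep metastasis-derived BPH-1 libraries, and 214 CPM in RWPE-1 parental and 229 CPM in RWPE-1 metastasis-derived ones. A list of 5 genes around NDN and MAGEL2 held MAGE family genes and the MAGEL2 partners TRIM27, a ubiquitin ligase, and USP7, a deubiquitinase. In the C-Raf comparison MAGED1 fell, TRIM27 and USP7 rose, and the other 2 did not pass, against 58.3% of all genes called.

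Genes whose levels followed a member most closely were found from Pearson's r of log2 CPM after each cell line's mean was subtracted, over the 21 deeper libraries and 12940 genes, as a description. Libraries of 1 stage share tables and RNA composition, and the values rest partly on that. For SNRPN they were GALNT11 (r = 0.88), DDR1 (0.87), MUT (0.86), MIR4697HG (0.82) and CST6 (0.82). For H19 they were C9orf3 (r = 0.97), LGALS7B (0.95), ZNF18 (0.94), SRPK2 (0.94) and LY6D (0.94), and LGALS7B has a near-identical copy with which reads may be split. For PEG10 they were PPME1 (r = 0.91), SAP30 (0.90), ERGIC3 (0.90), MMAB (0.89) and SPDL1 (0.88). Between members r was 0.67 for H19 with IGF2, which ranked 2056 of 12940 genes for H19, -0.66 for PEG10 with IGF2, 0.56 for SNRPN with MEST, -0.56 for SNRPN with H19 and -0.52 for H19 with MEST.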

How the data were processed

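RNA was sequenced in 24 libraries of BPH-1 and RWPE-1 cells. The authors deposited 4 tables of RSEM expected counts per gene symbol, made before their coding gene filter, ComBat-seq and log2 steps. Per the labels, the submitters' processing notes name cutadapt, FastQC, STAR, RSEM and hg38. Of 60448 symbols 36628 were found in GENCODE 29 and 857 more under a RefSeq synonym. The members and gene lists were chosen with earlier results of these data known. The genes named are the 10 members, list genes past the threshold with a mean of at least 1 CPM (at most 5 per direction and comparison, largest first) or next to a member, and the 5 genes most like SNRPN, H19 and PEG10.

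Expected counts were rounded. Protein-coding and long noncoding genes were kept, since H19 and MEG3 are noncoding, filtered with filterByExpr and scaled by TMM. Comparisons were fitted with edgeR 4.0.16 (R 4.3.3), quasi-likelihood, with the libraries of the compared groups only, and Benjamini-Hochberg adjustment over all genes tested (threshold 0.05). SE values were derived from the F statistic. The fits were tested on simulated data. Zeros are set beside the level that 3 counts would have, a limit on counting error only. The closest replicate pair differed by 1.69 times the counting variance per gene, so no library was merged. Alternatives were DESeq2 1.42.0, RLE factors, no filter, coding genes only, all genes, a replicate block, summed SNRPN and SNURF, a table term, all counts as denominator, and libraries left out. Leaving out each metastasis-derived library was chosen after seeing the data. The level of the introduced gene is not reported here.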

Additional observations from a re-analysis of the deposited data

Results flagged for a closer look

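Among 18 combinations of a member and a group of 4 to 7 libraries, 5 held a library far from the others of its group. Chance gives about 1 in 20 in groups of like libraries. The groups here mix deposited tables or depths, so the number flagged cannot be read against that share. H19 was 66.8 CPM in the RWPE-1 line Bone4, with the next line at 9.10 CPM. H19 was 1544 CPM in the BPH-1 line R072, with the next library at 545 CPM. MEST was 7.37 CPM in the RWPE-1 parental library CRAF-2, with the next at 2.39 CPM. SNRPN was 0.228 CPM (10 counts) in the RWPE-1 line Bone6, with the next at 0.0485 CPM. SNRPN was 15.2 CPM in the BPH-1 line R074, which rests on 1.82 counts and lies below the level of 3 counts in that library.

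The change of 2 members in metastasis-derived lines differed between the cell lines by the interaction term of edgeR. The difference of log2 fold changes, BPH-1 minus RWPE-1, was 6.80 for H19 and 5.54 for IGF2, and on the scaled level both genes were higher in 6 of 6 metastasis-derived BPH-1 libraries than in every BPH-1 parental library. Relative to all counts IGF2 was lower than every parental library in the 3 low libraries, and H19 in 1 of them, the line titled bone R075. The table and the RN7SL1 share cannot be told apart from stage in BPH-1.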

How the results depend on the processing

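With DESeq2, RLE factors, no filter, all genes, the replicate block or a library left out, the 6 members tested after C-Raf and the 2 that passed in the difference of metastasis changes, H19 and IGF2, kept direction and call. With protein-coding genes only, H19 and MEG3 were not tested, which leaves 4 members past the threshold after C-Raf, 4 between the cell lines and 1 in the difference of metastasis changes. Between the cell lines, H19 lost its call without BPH-1 parental replicate 3 (-1.48). In the difference of metastasis changes, PEG10 gained a call without the 3 low libraries (-0.62), and MEG3 turned sign with DESeq2 (-0.14), without RWPE-1 parental replicates 3 (-0.06) and 4 (-0.29), without LN1B (-0.05) and without R072 (-0.01), with a range of -0.29 to 0.46 when 1 library was left out; the causes were not tested.

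Genes past the threshold between metastasis-derived and parental libraries numbered 2447 in BPH-1, 5468 without the 3 low libraries, and 1256 to 3732 when 1 library was left out (1256, 1286 and 1307 without parental replicates 1, 2 and 3, and 3732 without R071). In RWPE-1 they numbered 15, 192 with DESeq2 (1102 and 1293 at an unadjusted p under 0.05), and 5 to 42 when 1 library was left out (23, 9, 5 and 6 without parental replicates 1 to 4, 7 without LN1B, 8 without Spine and 42 without Bone4). With both lines they numbered 559, 1252 with DESeq2 and 1967 with all genes of the tables. In the difference of metastasis changes they numbered 4539, and 3189 to 5725 when 1 library was left out. The causes were not tested.

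Replicate numbers of the BPH-1 vector and parental libraries share only a number: deviations of same-numbered libraries correlated at -0.02, -0.16 and -0.14, and no library correlated best with its own number. The replicate block called 7839 genes in place of 8064 and changed no call of a member. Summing SNRPN and SNURF could not move SNRPN after C-Raf, since SNURF had 0 counts in those libraries. Depth limits SNRPN, PEG10, MEG3 and MEST in the 3 low libraries, where 3 counts are 11.8 to 57.6 CPM.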
